A study of Mus musculus with 7 samples.

Results

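The data described here are the small RNA of heart mitochondria from control mice, as a baseline without any knockout. The members are the 3 libraries whose titles give L/L without cre, out of 7 libraries in the series, and only their deposited raw counts were used. The L/L mice carried loxP-flanked alleles of Tefm, the gene of the mitochondrial transcription elongation factor, and their genotype label reads Tefm +/+. The other 4 libraries, from L/L mice with cre driven by the promoter of muscle creatine kinase, were not analysed here. The sources used here give no strain, age, sex or treatment. The design text speaks of 4 control mice. The 3 libraries are named control 1, 2 and 3 after their labelled replicate numbers and were each taken as 1 mouse.

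Crude mitochondria had been prepared from heart, and RNA had been taken up on a column that keeps small RNA before library construction with an Illumina small RNA kit. Such a preparation can hold RNA from outside mitochondria. A count at an mRNA or rRNA stands for a short fragment of it. Counts at a tRNA do not tell the whole tRNA from a fragment. How evenly different tRNAs were captured was not tested. The sources used here do not state which fragment lengths were kept. Levels are counts scaled to a library total of 1000000 (CPM), and levels of different genes are compared after division by gene length in kilobases (CPM per kb) or as a share of their class. The totals were 1560798 counts in control 1, 2570739 in control 2 and 2015482 in control 3. Of 49584 features, 6594 were counted in all 3 libraries and 13677 in any of them. No molecular identifiers are described, so the 95% Wilson intervals given cover counting error only. With 3 counts taken as the limit of detection, the floor lay between 1.17 and 1.92 CPM. No groups were compared, so no test was made, and the spread is given as SD over n = 3 or as the coefficient of variation (CV, SD over mean).

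Mitochondrial DNA is transcribed from both strands as long precursors in which tRNAs punctuate the mRNAs and rRNAs, and cutting at the tRNA ends releases the separate RNAs. The transcript of the L-strand promoter carries a few tRNAs and Nd6, and the 7S RNA is a short transcript from the same promoter. MicroRNAs are short guides loaded into Argonaute in the cytosol that pair with mRNAs through their seed, and snoRNAs are nucleolar guides, mostly cut from introns, that direct modification of rRNA.

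The mitochondrial tRNAs at the ends of the order by counts are shown first, since they span the widest range of any class encoded in mitochondria. The sequences are those of the gene in GENCODE M21 (GRCm38), 5′ to 3′ and written as DNA, with the anticodon in capitals. The anticodon was located by a script that paired the 5 bases on either side of the loop. The first 3 led the tRNA counts, the last 4 had the lowest levels, and mt-Tl2 is the low neighbour of mt-Ts2.
mt-Ts2 (serine, chrM:11613-11671, + strand): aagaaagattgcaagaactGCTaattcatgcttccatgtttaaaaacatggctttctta
mt-Tm (methionine, chrM:3845-3913, + strand): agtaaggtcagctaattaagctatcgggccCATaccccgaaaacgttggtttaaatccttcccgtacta
mt-Th (histidine, chrM:11546-11612, + strand): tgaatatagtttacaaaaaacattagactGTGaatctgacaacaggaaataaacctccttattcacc
mt-Tl2 (leucine, chrM:11671-11741, + strand): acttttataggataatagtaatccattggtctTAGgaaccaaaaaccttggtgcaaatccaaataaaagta
mt-Tp (proline, chrM:15356-15422, - strand): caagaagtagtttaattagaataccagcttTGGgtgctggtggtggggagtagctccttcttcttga
mt-Tf (phenylalanine, chrM:1-68, + strand): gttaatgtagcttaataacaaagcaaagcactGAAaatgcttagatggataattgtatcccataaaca
mt-Tr (arginine, chrM:9808-9875, + strand): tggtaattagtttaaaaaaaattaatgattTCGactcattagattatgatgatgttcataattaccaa
mt-Td (aspartate, chrM:6942-7011, + strand): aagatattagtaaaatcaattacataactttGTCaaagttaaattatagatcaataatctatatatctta
The serine tRNA mt-Ts2 is known for lacking a D arm and is the shortest of these, at 59 nt. The GC content was 17.1% in mt-Td and 22.1% in mt-Tr, against 32.2% in mt-Ts2, 44.9% in mt-Tm and 31.3% in mt-Th. The low mt-Tp, at 44.8%, had a GC content close to that of mt-Tm. The low mt-Tf, at 30.9%, and mt-Tl2, at 31.0%, were close to mt-Th.

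Mature microRNAs are shown for some of the leading loci found in the RefSeq table (GRCm38.p6), grouped by seed, with the seed (bases 2 to 8) in capitals. They are the arms usually taken as the guide, and the counts are per locus and do not tell the arms apart.
miR-27b-3p: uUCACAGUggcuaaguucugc
miR-27a-3p: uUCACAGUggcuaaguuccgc
miR-30a-5p: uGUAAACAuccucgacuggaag
miR-30e-5p: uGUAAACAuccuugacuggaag
miR-10a-5p: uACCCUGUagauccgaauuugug
miR-10b-5p: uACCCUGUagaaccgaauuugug
let-7i-5p: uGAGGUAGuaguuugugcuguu
let-7g-5p: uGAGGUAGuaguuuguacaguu
let-7b-5p: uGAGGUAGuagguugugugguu
miR-451a: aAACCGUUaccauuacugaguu
Mir143, Mir378a and Mir151 are named only. Other leading loci, such as Mir26b, Mir148a and Mir99b, are not printed, though their shares were above that of Mir27a. The printed matures were 21 to 23 nt long, so microRNA shares were not divided by length.

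Mitochondrially encoded RNA took most of the counts that fell on listed features in each library. Its 36 features took 70.2% of the counts in control 1, 85.3% in control 2 and 87.5% in control 3, a mean of 81.0% ± 9.38 (SD, n = 3). The widest 95% interval, that of control 1, ran from 70.2% to 70.3%, so the distance between libraries was far beyond counting error. A handful of features carried each library, with 5 or 6 giving 50% of the counts. The top feature was the 16S rRNA mt-Rnr2 in control 1 (29.9% of counts) and control 3 (14.5%), and mt-Co1, which encodes a core subunit of cytochrome c oxidase, in control 2 (15.8%).

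Within that sum the classes differed widely between libraries. Fragments of mitochondrial mRNA took 10.9% of counts in control 1, 63.2% in control 2 and 47.2% in control 3 (40.4% ± 26.8, SD, n = 3). Mitochondrial tRNAs took 22.0%, 12.1% and 22.5% in the same order (18.8% ± 5.89). Mitochondrial rRNA took 31.6%, 9.24% and 15.6% (18.8% ± 11.5), and the 7S RNA 5.87%, 0.796% and 2.19% (2.95% ± 2.62). Control 1 was thus rich in rRNA and 7S RNA and poor in mRNA fragments, and control 2 was the reverse. The mean share of mRNA lay above those of tRNA and rRNA by less than its own SD, and in control 1 it was the lowest of the 3, so the libraries gave no common order of these classes. The ratio of mRNA to rRNA counts was 0.344 in control 1, 6.84 in control 2 and 3.02 in control 3.

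**Figure D1:**
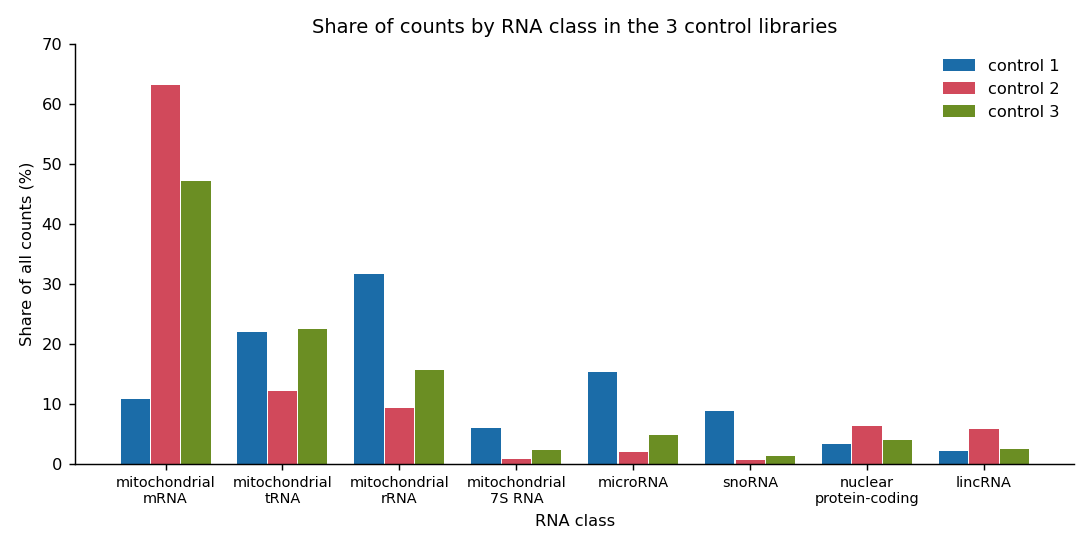
Share of all counts (%, vertical axis) taken by each RNA class in the 3 control libraries, 1 bar per library. Control 1 has the highest bars for mitochondrial rRNA (31.6%), 7S RNA, microRNA (15.2%) and snoRNA (8.82%), and control 2 the highest for mitochondrial mRNA (63.2%), nuclear protein-coding genes and lincRNA.

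The nuclear classes also differed between the libraries. MicroRNAs took 15.2% of counts in control 1, 1.93% in control 2 and 4.80% in control 3 (7.32% ± 7.0). SnoRNAs took 8.82%, 0.521% and 1.20% (3.52% ± 4.61), which is a range of 16.9-fold. Both small RNA classes were thus highest in control 1 and lowest in control 2. Fragments of nuclear protein-coding genes took 3.27%, 6.23% and 3.92% (4.48% ± 1.56), with the highest share in control 2. Features typed as lincRNA took 2.10%, 5.77% and 2.37%, and 99.1% of those counts fell on Gm42418 and Gm26917. Gm42418 lies at chr17:39846958-39848788 (mm10, + strand) and overlaps Rn18s-rs5, an 18S rRNA-like entry of RefSeq, so this share is not read here as lincRNA. Control 1 set several of these means: without it, the mean share was 0.861% for snoRNA, 3.37% for microRNA, 1.49% for 7S RNA and 12.4% for mitochondrial rRNA. Without control 2 the mean lincRNA share was 2.24%.

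Among the 22 mitochondrial tRNAs, 3 held most of the counts. The serine tRNA mt-Ts2 stood at 58022 CPM in control 1, 41023 in control 2 and 55375 in control 3. Its level was high in every library and its CV was 17.8%. The methionine tRNA mt-Tm, which serves both initiation and elongation in mitochondria, stood at 19917, 27070 and 85849 CPM, so that control 3 alone lifted it above mt-Ts2. The histidine tRNA mt-Th, the 5′ neighbour of mt-Ts2, stood at 45741, 14280 and 25137 CPM. Together they took 56.3%, 68.3% and 73.8% of tRNA counts (66.2% ± 8.94, SD, n = 3). The valine tRNA mt-Tv followed at 23147, 7043 and 13193 CPM, and the glycine tRNA mt-Tg at 12175, 8675 and 10075.

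The lowest tRNA was mt-Td, for aspartate, at 115, 133 and 235 CPM, or 180, 342 and 473 counts. The arginine tRNA mt-Tr stood at 186, 231 and 209 CPM and the proline tRNA mt-Tp at 518, 284 and 397. The phenylalanine tRNA mt-Tf, the first gene after the H-strand promoter, stood at 814, 117 and 218 CPM and was low in all 3, with a CV of 98.3%. The remaining 13 tRNAs, from mt-Ty down to mt-Ta, had means between 766 and 7374 CPM. Per kb, mt-Ts2 was 597, 366 and 280 times mt-Td in controls 1, 2 and 3.

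Genes that lie side by side in one precursor had very different levels. The genes of mt-Th, mt-Ts2 and mt-Tl2 follow each other without a gap on the + strand. Per kb, mt-Ts2 was 47.7, 69.5 and 71.2 times mt-Tl2, the leucine tRNA next to it, and mt-Th was 33.1, 21.3 and 28.5 times mt-Tl2. Likewise mt-Tv was 28.0, 59.3 and 59.6 times mt-Tf per kb, with only the 12S rRNA between them. By contrast, mt-Tl1 kept 0.360, 0.440 and 0.347 of the level of mt-Tv per kb, across the 16S rRNA that separates them. The genes of mt-Ti and mt-Tq overlap on opposite strands, as do mt-Ts1 and mt-Co1, and the sources used here do not say whether the counting used strand.

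The rank order of the tRNAs held at its ends and not between neighbours. The set of the 5 highest by CPM shared mt-Th, mt-Tm, mt-Ts2 and mt-Tv in all 3 libraries, and the set of the 5 lowest shared mt-Td, mt-Tf, mt-Tp and mt-Tr. Of the 21 pairs of neighbours in the order of mean CPM, 4 stood in the same order in every library. Only 2 pairs had ranges that did not overlap, mt-Te above mt-Tc and mt-Ta above mt-Tp. Across the 22 tRNAs, Pearson's r of log levels was 0.92 to 0.98 between libraries, a description that rests on the shared wide range of levels. The glutamate tRNA mt-Te varied least, at 3955, 3351 and 3424 CPM (CV 9.22%), followed by mt-Tr (CV 10.7%).

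The 14 tRNAs of the + strand, made from the H-strand promoter, held 4.14, 6.78 and 8.04 times the counts of the 8 tRNAs of the other strand. That ratio came from a few genes, since the 3 leading tRNAs are all on the + strand. By the median gene the order turned around: 26138, 10625 and 19198 CPM per kb for the + strand against 37760, 23797 and 41207 for the - strand. Mean levels ranged 379-fold among the + strand tRNAs and 18.5-fold among those of the - strand.

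**Figure D2:**
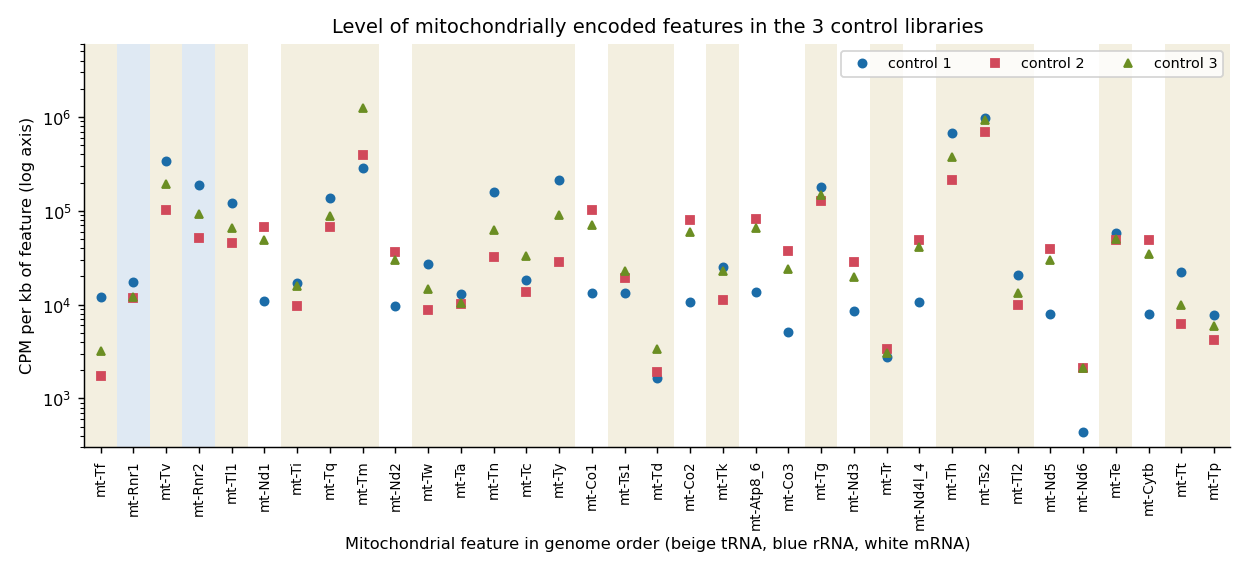
Level of 35 mitochondrially encoded features (CPM per kb, log axis) in genome order, 1 point per control library, with tRNAs on beige, rRNAs on blue and mRNAs on white. The tRNAs range from mt-Td at a mean of 2300 to mt-Ts2 at a mean of 872429, and at the mRNAs control 1 lies below both other libraries.

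The rRNA counts fell mainly on the 16S gene. The 16S rRNA mt-Rnr2 stood at 299187, 81214 and 144649 CPM, and the 12S rRNA mt-Rnr1 at 16542, 11198 and 11604. Per kb the 16S was 10.9, 4.38 and 7.52 times the 12S. The 16S was the more variable, with a CV of 64.1% against 22.7% for the 12S. The excess of control 1 in rRNA lay mainly in the 16S, though the 12S was highest in control 1 too. The mt-7s feature stood at 58670, 7958 and 21932 CPM, in the same library order as the 16S.

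The mRNA fragments covered 11 features, of which mt-Nd4l_4 and mt-Atp8_6 each combine overlapping reading frames. The cytochrome c oxidase subunit mt-Co1 stood at 13440, 101977 and 70170 CPM per kb and the ATP synthase feature mt-Atp8_6 at 13494, 82582 and 66233. Then came mt-Co2 (10550, 78862 and 58953) and mt-Nd1, a membrane subunit of complex I (10844, 66477 and 48804). Each of the 11 was lowest in control 1 and highest in control 2. The L-strand gene mt-Nd6 was lowest in each library, at 436, 2123 and 2119 CPM per kb, and mt-Co1 was 30.8, 48.0 and 33.1 times higher.

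As shares of the mRNA counts the libraries were much closer. The sum of mt-Co1, mt-Nd4l_4 and mt-Nd5 was 49.1% of mRNA counts in each library, with offsetting shifts among the 3. The share of mt-Nd1 was 9.56%, 10.1% and 9.91% (CV 2.65%) and that of mt-Cytb, the cytochrome b gene, 8.33%, 8.92% and 8.42% (CV 3.73%). The ratio of mt-Co2 to mt-Co1 per kb was 0.785, 0.773 and 0.840. The exceptions were the short mt-Nd3, at 2.73%, 1.56% and 1.45% (CV 37.2%), and mt-Nd2, at 9.27%, 5.98% and 6.54% (CV 24.3%), both highest in control 1.

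Among microRNAs as counted here, 1 locus stood far above the rest. The ranking and shares hold for the deposited counts only. How reads that fit several loci were counted is not stated, and some loci given below had few or no counts. Mir143, known from smooth muscle, took 32.0% of microRNA counts in control 1, 28.0% in control 2 and 35.3% in control 3 (31.8% ± 3.61, SD, n = 3). Its level was 48747, 5410 and 16936 CPM, so the share was steady while the level ranged widely. Its neighbour Mir145a, from the same cluster, had 347, 82 and 169 counts, and Mir143 was 219, 170 and 202 times higher. The 20 leading features took 88.6%, 87.3% and 87.3% of the class. Of 2202 features typed as microRNA, 304 had a count and 50 reached a mean of 100 CPM.

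The next loci were Mir27b and Mir30a. Mir27b took 8.02%, 8.73% and 7.81% of microRNA counts and Mir27a, which shares its seed as shown above, 0.699%, 0.815% and 0.670%, a ratio of 11.5, 10.7 and 11.7. Mir30a took 7.31%, 8.28% and 7.83% and Mir30e, of the same seed, 2.69%, 3.93% and 3.29%. Mir378a, which lies in an intron of the metabolic coactivator gene Ppargc1b, took 6.57%, 6.48% and 6.39% (CV 1.38%). Mir10a and Mir10b, from the Hox clusters, took almost equal shares, with a ratio of 1.04, 0.894 and 1.08. The printed let-7 members with the seed GAGGUAG summed to 2.69%, 2.71% and 3.37%.

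A few features of the class did not follow it. Mir451a, an erythroid microRNA made without Dicer, took 0.901%, 1.91% and 2.99%, with 2143, 945 and 2891 counts, and was highest in control 3. Mir144, from the same cluster, had 291, 131 and 368 counts. Erythroid mRNA markers were low, with a summed level of 11.5, 11.7 and 13.9 CPM over 6 genes, and their part in the Mir451a levels was not tested. Mir6240 took 0.787%, 5.95% and 0.687% (CV of the share 122%), a share high in control 2 alone. Its level was 1199, 1148 and 330 CPM, so in CPM control 1 was about as high as control 2. The feature Snord43 is typed as microRNA in the files and is a snoRNA by its symbol. It took 8.58%, 3.53% and 3.27% of the class and stood at 0.452, 0.407 and 0.356 of Snord55 by counts, closer to a fixed share of snoRNA than of microRNA.

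The muscle microRNAs of the list used here were nearly all low. The 3 loci carried in introns of myosin genes were counted: Mir499 (357, 122 and 203 counts), Mir208a, from the cardiac myosin gene Myh6 (192, 55 and 130), and Mir208b, from Myh7 (79, 30 and 36). Mir1a-1 had 3, 4 and 1 counts and Mir133a-1 3, 3 and 1, and Mir133b, Mir206 and Mir1b had 0. How reads that fit several loci or features were counted is not stated in the sources used here, and its part in these low counts was not tested. Among matched loci, 699 had mature sequences of their own and no same-strand exon of another gene in GENCODE M21. Of these, 68.0% were at 0. Mir1a-1, with its few counts, was placed in this kind. Mir1a-2 was not matched, so a mature sequence shared by Mir1a-1 and Mir1a-2 could not be seen. Of 218 loci that overlap a same-strand exon of another gene 91.7% were at 0. Of 62 that share a mature sequence with another locus 67.7% were at 0, and of 30 that do both 66.7%. Of the 169 unmatched loci 85.2% were at 0. Whether overlap or sharing had a part in these values was not tested. The highest mean level was 5501 CPM for loci with sequences of their own and 5888.5 CPM for overlapping loci. It was 155 CPM for sharing loci, 54.6 CPM for those that do both and 23698 CPM, at Mir143, for unmatched loci. A mean of 100 CPM was reached by 5.29%, 1.38%, 3.23%, 0% and 3.55% in the same order. Mir21a, Mir126a, Mir29c and Mirlet7d were among those at 0, while Mir27b and Mirlet7i, which overlap an exon as well, were counted. Those 4 loci at 0 were picked out after their values were seen. Mir451a and Mir451b lie on opposite strands of one site, and Mir451b had 0 counts.

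Among snoRNAs, Snord55, a box C/D guide, took 32.8%, 32.2% and 36.7% of the class (33.9% ± 2.41). Its level was 366560, 21232 and 55790 CPM per kb, and it led in each library. Snord110, at 98470, 4634 and 8690 CPM per kb, was second in control 1, and Gm23130, at 75689, 5173 and 11948, was second in controls 2 and 3. The 10 leading features took 74.3%, 73.9% and 77.1% of the class. Features with a Snord symbol, the box C/D kind, held 75.2% ± 0.732 of the counts, and those with a Snora symbol, the longer box H/ACA kind, 0.183% ± 0.159. Most of the rest had no symbol of either kind. Features up to 100 nt long held 99.1% ± 0.565. Snord66, at 3.60%, 3.49% and 3.46%, kept the steadiest share of the 10 (CV 2.11%), and Snord83b (2.89%, 4.49% and 4.04%) and Snord110 (7.59%, 6.05% and 4.92%) the least steady.

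**Figure D3:**
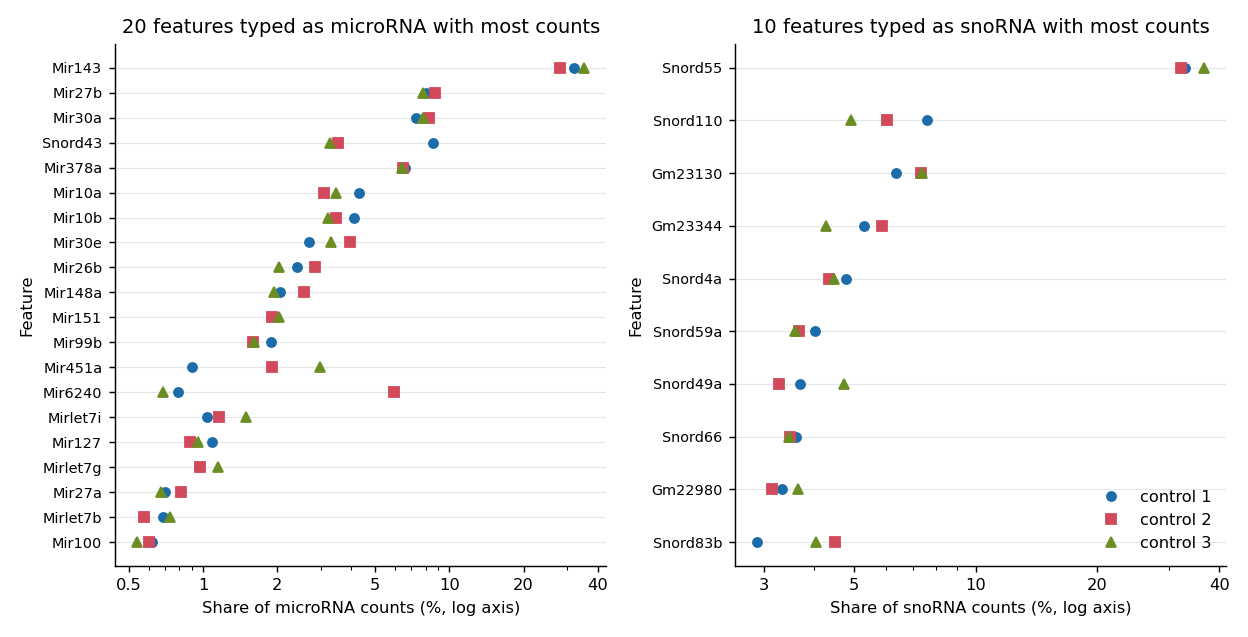
Share of the class (%, log axis) for the 20 leading features typed as microRNA (left) and the 10 leading snoRNAs (right), 1 point per control library. The points of most features lie close together, with Mir451a, Mir6240 and Snord43 spread widest. Mir143 is at 28.0% to 35.3% and Snord55 at 32.2% to 36.7%.

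Nuclear mRNA fragments carried the markers of heart muscle. All 10 cardiomyocyte markers of the list were counted in every library, at a summed level of 4584, 5932 and 3568 CPM. Of all protein-coding genes, 6070 of 21960 were counted in every library. All 7 fibroblast, 9 endothelial, 6 smooth muscle and pericyte and 6 erythroid markers had a count in at least 1 library. Of the sarcomere genes, the cardiac actin Actc1 stood at 346, 414 and 317 CPM per kb, the myosin heavy chain Myh6 at 184, 220 and 145 and the giant spring protein Ttn at 15.3, 21.4 and 10.3. The adult form Myh6 was 191, 221 and 503 times Myh7 per kb, a ratio that rests on few Myh7 counts. Skeletal muscle markers summed to 76.9, 99.6 and 71.0 CPM, mostly Ckm, the creatine kinase that heart expresses too, and white blood cell markers to 19.2, 37.3 and 31.3. The markers of liver reached at most 0.641 CPM in sum, those of neural cells 1.94 and those of adipocytes 2.56. Fibroblast markers summed to 160, 379 and 314 CPM, endothelial markers to 133, 385 and 264, and smooth muscle and pericyte markers to 33.3, 91.0 and 64.0, each lowest in control 1. The fragments of Tefm itself numbered 0, 2 and 1 counts, which is at or below the floor.

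The lists of nuclear genes for mitochondrial proteins varied little between libraries in CPM, and more as shares of the protein-coding counts. Complexes II to V summed to 830, 989 and 812 CPM (CV 11.1%). Of their 39 genes 38 had a count in at least 1 library, against 11570 of 21960 protein-coding genes. The 38 included the ATP synthase subunits Atp5b (192, 226 and 176 CPM) and Atp5a1 (120, 151 and 123 CPM). Fatty acid oxidation summed to 378, 429 and 346 CPM (CV 11.0%), the citric acid cycle to 730, 870 and 699 (CV 11.9%) and complex I to 272, 347 and 267 (CV 15.1%). As shares of the protein-coding counts the CVs of these lists were 23.0%, 25.7%, 23.1% and 19.95%, each with the highest share in control 1. Sarcomere genes had a CV of 24.9% in CPM and 25.6% as a share, and calcium handling genes 42.5% and 22.7%, so the lists differed in spread in CPM and hardly as shares. Most of the calcium handling counts fell on the calcium pump Atp2a2, at 559, 1750 and 1366 CPM. The 19 genes for mitochondrial transcription and RNA handling summed to only 42.3, 50.2 and 33.2 CPM, led by Lrpprc, which stabilises mitochondrial mRNA, with 24, 48 and 30 counts.

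**Figure D4:**
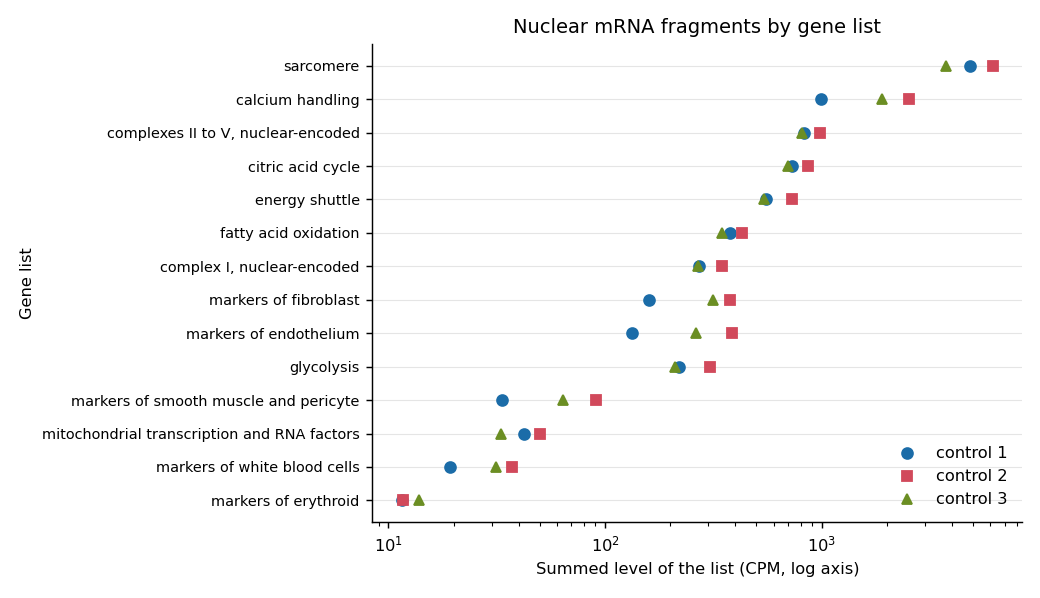
Summed level (CPM, log axis) of 14 lists of nuclear protein-coding genes, 1 point per control library. On this CPM scale the respiratory chain, citric acid cycle and fatty acid oxidation lists have points close together, and the fibroblast, endothelium and calcium handling lists have control 1 apart on the low side.

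Several leading nuclear genes had an unsteady share of their class. Lars2, the gene of the mitochondrial leucyl-tRNA synthetase, led the protein-coding class with 1294, 10321 and 3555 CPM, or 3.95%, 16.6% and 9.06% of it (9.86% ± 6.34, and 6.51% without control 2). Its library order was that of Gm42418, at 17840, 56988 and 23200 CPM. Of 33 protein-coding genes with a mean of at least 100 CPM, 28 were highest in control 2 and 4 in control 1. Those 4 were Snrpb, which encodes a core spliceosomal protein (1053, 88.7 and 170 CPM), Folr1 (297, 40.1 and 105), Rpl7a (281, 15.2 and 28.3) and Idh2 (154, 112 and 95.3). In Snrpb, Folr1 and Rpl7a, but not Idh2, the library order was that of the snoRNA and microRNA classes. Whether their counts came from mRNA fragments was not tested. Gpr176 was the one gene highest in control 3, at 20.5, 150 and 451 CPM. An annotated rRNA feature, Gm22651, overlaps Gpr176 on the other strand. Folr1 was picked out after its values were seen. Among other nuclear RNAs, Gm24601, annotated as rRNA, stood at 144, 677 and 494 CPM, Scarna17, a guide RNA of Cajal bodies, at 668, 39.3 and 91.8, and Rn7sk, which restrains transcription elongation in the nucleus, at 234, 184 and 145.

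For snoRNAs, microRNAs and mitochondrial mRNAs, the spread among libraries was largely one of classes. Of the 155 features with a mean of at least 100 CPM, 104 were highest in control 1 and 102 lowest in control 2, and their median CV was 84.9%, against 3.61% from counting at the median count. At a mean of at least 20 CPM, which adds mostly protein-coding genes, the counts turned around: of 452 features 249 were highest in control 2 and 191 in control 1, 184 were lowest in control 1 and 168 in control 2, and the median CV was 51.4%. The median CV of snoRNAs was 135% in CPM and 11.3% as shares of snoRNA counts. For microRNAs it was 93.4% and 13.8%, and for mitochondrial mRNAs 66.7% and 12.8%. The mitochondrial tRNAs differed, at 38.9% in CPM and 34.1% as shares, so taking shares lowered their median CV only a little. The same held for nuclear protein-coding genes, at 32.4% and 27.6%. The 5 features of lowest CV were mt-Te, mt-Tr, Pln, Atp5b and Atp5a1, and the 5 of highest CV Gm22574, Snord110, Rpl7a, Snord19 and Snord73a.

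**Figure D5:**
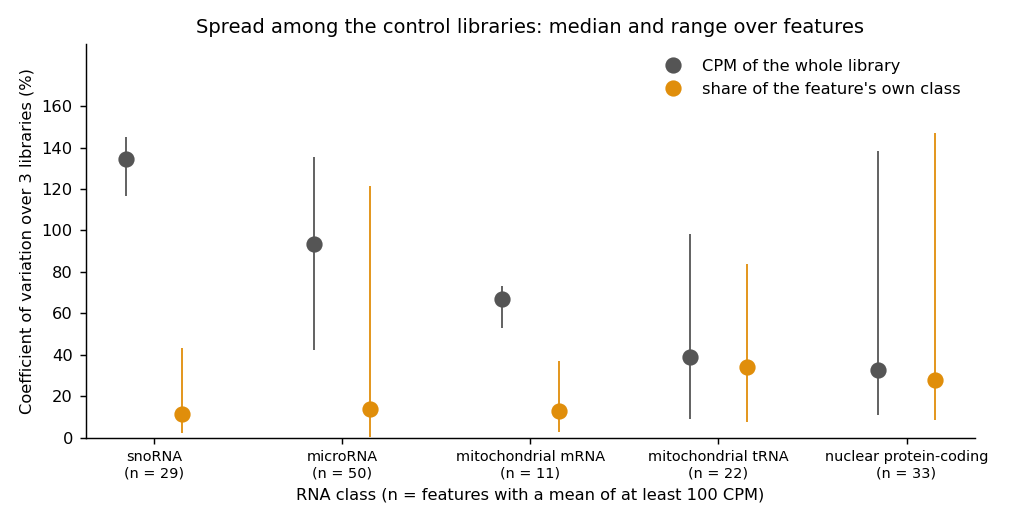
Coefficient of variation over the 3 control libraries (%, vertical axis) for features with a mean of at least 100 CPM, as the median (point) and the whole range (line) in each class. Grey is for CPM of the whole library and orange for the share of the feature's own class. The orange medians lie near 11% to 14% for snoRNA, microRNA and mitochondrial mRNA, and near the grey ones for mitochondrial tRNA and nuclear protein-coding genes.

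The biological coefficient of variation, edgeR's common estimate of the spread beyond counting error, was 55.7% over 1714 features. For controls 2 and 3 alone it was 33.5%, over 2107 features. With each class scaled on its own it was 15.7% for mitochondrial mRNA, 17.1% for snoRNA, 25.9% for nuclear protein-coding genes, 30.1% for microRNA and 38.3% for mitochondrial tRNA. Across 892 features with at least 10 counts in every library, Pearson's r of log levels was 0.79 between controls 1 and 2, 0.91 between 1 and 3 and 0.94 between 2 and 3. These correlations are across features that share a library and are given as a description.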

How the data were processed

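The authors deposited raw counts per feature, as whole numbers whose totals differ by library. The submitters' processing notes name featureCounts, Bowtie2, bedtools, DESeq2 1.14.1, R 3.3.2, cutadapt 1.10, SAMtools 1.3.1 and the build mm10, without their roles. The sources used here do not state the annotation release, the use of strand or the handling of reads with several matches. Feature names and types came from the authors' deposited table. For 18 of 36 mitochondrial features the deposited type went against the symbol, which then set the class. Of 49548 Ensembl identifiers, 49289 were found in GENCODE M21. Coordinates were used only for the 43712 of identical version, and lengths are union exon lengths. Of 1178 microRNA loci, 1009 matched RefSeq and GENCODE.

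CPM, shares, Wilson intervals, SD and CV were computed in Python 3.11.15 with pandas 2.3.3. The common dispersion came from edgeR 4.0.16 (TMM scaling, intercept alone) in R 4.3.3. The planned filter, edgeR's default, was replaced after a test on simulated counts: at a true value of 90% it gave 68.6% over 676 features, because with 1 group it asks for counts in every library. A mean of at least 10 counts gave 88.1% there over 1652 features, and 20.0% and 49.6% at true values of 20% and 50%. The results under both filters are given.

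Named were all mitochondrial features, the 20 microRNA, 10 snoRNA, 15 protein-coding and 6 other non-coding features of highest mean CPM, up to 5 leading members of each list, and the 5 lowest and 5 highest CVs at a mean of at least 100 CPM. The libraries, gene lists and rules were chosen with earlier results of these data known. Alternatives left out each library, changed the total or the class of a feature, and used TMM or DESeq2 1.42.0 size factors.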

Additional observations from a re-analysis of the deposited data

How the results depend on the processing

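With 3 libraries, leaving 1 out cannot move a mean by more than its SD, so the ranges that follow are given as values and do not show stability. Without 1 library at a time, the mean share was 29.0% to 55.2% for mitochondrial mRNA, 17.0% to 22.2% for tRNA, 12.4% to 23.6% for rRNA, 3.37% to 10.02% for microRNA and 0.861% to 5.01% for snoRNA. The share of Mir143 was 30.02% to 33.6% and that of Snord55 32.5% to 34.7%. The biological coefficient of variation was 33.5% without control 1 and up to 66.0% without control 3. It was 55.6% with edgeR's default filter, 46.2% with none, 56.7% with library totals and 56.2% with DESeq2 size factors. By class, the default filter gave 27.5% for microRNA, 13.8% for snoRNA and 25.2% for protein-coding genes. By the deposited feature types, tRNA would take 32.0% of counts and rRNA 0.500%. Of nuclear counts alone, microRNA took 34.2% (51.2%, 13.1% and 38.4% in controls 1, 2 and 3), protein-coding genes 28.2% (11.0%, 42.3% and 31.4%), lincRNA 21.7% (7.07%, 39.1% and 19.0%) and snoRNA 14.3% (29.7%, 3.53% and 9.62%), with no order common to the libraries. Moving Snord43 to the snoRNAs, an alternative added after seeing the data, gave 6.81% for microRNA and 4.03% for snoRNA. With a mean of at least 20 CPM the median CV was 51.4%. Summed by family, let-7 loci took 3.45%, miR-30 loci 11.4%, miR-26 and miR-29 loci 2.95% and miR-23, miR-24 and miR-27 loci 9.67% of microRNA counts. The mean levels of the 36 mitochondrial features under TMM factors and DESeq2 size factors stayed within 1 SD, which is wide with n = 3. Their medians did too, but a median cannot lie further than 1 SD from its mean, so this does not show stability. No paired analysis was possible because a single group was described and nothing was compared.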
